A study of Drosophila melanogaster with 6 samples.

Results

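The 10 genes described here set up the mesoderm of the Drosophila embryo or carry its first signals: the transcription factor genes twist (twi), snail (sna), Mef2 and tinman (tin), the FGF receptor gene heartless (htl), its adaptor gene stumps, the FGF ligand genes pyramus (pyr) and thisbe (ths), the insulin-like peptide gene Ilp4 and the Wnt gene wntD. They were chosen by their CG numbers and not by a rule on their values, though earlier results of these data were known. All 10 of the 10 named were among the 9073 genes listed. The libraries came from wild-type embryos (Oregon R) in the late blastoderm stage, just before the ventral furrow forms. In the eve+runt dsRNA group (3 libraries), double-stranded RNA was injected, before cells formed, against even-skipped and runt, at 1 µg/µl of each. In the water group (3 libraries), embryos of the same stock and age had been injected with water. Each library was poly(A) RNA of about 50 pooled whole embryos, collected as eggs over 0 to 1 h at 25 °C and then kept at 18 °C. The series asks which genes the striped transcription factors Eve and Runt control, and these 10 genes act along the other axis of the embryo, from back to belly.

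The mesoderm forms from the ventral cells of the blastoderm, where nuclear Dorsal protein is highest and switches on twi and sna. Twist is a basic helix-loop-helix activator of mesodermal genes, among them tin, Mef2 and htl, and Snail is a zinc-finger repressor that keeps neuroectodermal genes off in the same cells. After the ventral cells have folded in, Pyramus and Thisbe, made by the ectoderm, act through the receptor Heartless and its adaptor Stumps to spread the mesoderm over the ectoderm.

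Gene reads were 23234425 to 49364110 per library. Levels below are normalised read counts, which are the authors' values less the 1 that was added to each, and log2 fold changes are dsRNA minus water on the log2(normalised count + 1) scale, from limma with Benjamini-Hochberg adjustment over all 9073 genes. Transcripts of run, a target of the injection, stood at 1976, 1922 and 1733 in dsRNA replicates 1, 2 and 3 and at 3131, 2220 and 3557 in water replicates 1, 2 and 3. Those of eve, the other target, stood at 2922, 2727 and 2325 in the dsRNA libraries and at 2827, 1699 and 3075 in the water libraries. Thus run was lower in every dsRNA library (log2 fold change −0.64 ± 0.18, SE; limma adjusted p = 0.999) and eve was not, so eve gives no check of the label. Without water replicate 2 these log2 fold changes were −0.83 ± 0.097 for run (limma adjusted p = 0.0521) and −0.16 ± 0.11 for eve (SE). Exons of eve overlap those of asRNA:CR43948. Water replicate 2 stood apart: it scored 60.6 on the first principal component (54.7% of the variance), where the other 5 libraries scored −27.7 to 5.61. For the 10 genes each log2 fold change is therefore also given without that library. Since no label says that replicates came from separate injection days, the p-values measure the spread between these pools of embryos. In whole embryos, fewer cells of a type and less RNA per cell cannot be told apart.

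None of the 10 genes rose or fell past the threshold in the dsRNA embryos. With limma 0 of 10 passed, where 1 of all 9073 genes did (0.011%), 0 of 10 had an unadjusted p under 0.05 (2.27% of all genes did), and 0 of 10 had groups that did not overlap (6.35% of all genes did, 2.99% higher and 3.36% lower in dsRNA embryos). Limma-voom on the recovered reads also called 0 of 10. The log2 fold change was positive for 8 genes (49.5% of all genes) and negative for 2, with a median of 0.27 against −0.0015 over all genes. The sign of that median rested on water replicate 2: without it 3 genes were positive and 7 negative, with a median of −0.18 against −0.026 over all genes. The spread was wide in these genes, with a median standard error of 0.58 against 0.20 over all genes, and without water replicate 2 it was 0.27 for the 10 genes.

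**Figure D1:**
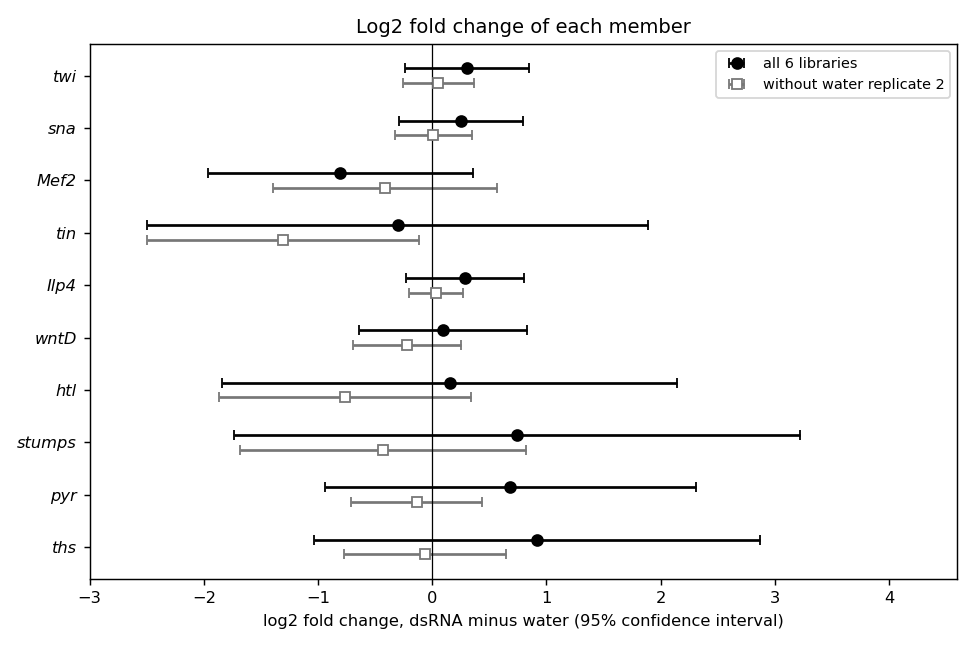
Log2 fold change of each of the 10 genes, dsRNA minus water (horizontal axis), with 95% confidence intervals from limma. Filled circles use all 6 libraries and open squares leave out water replicate 2. All filled intervals include 0, and among the open ones that of tin does not.

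The transcription factor gene twi (CG2956; BDGP6 chromosome 2R, 22985374 to 23048325, plus strand) had 8184, 6979 and 5925 normalised counts in dsRNA replicates 1, 2 and 3, against 6378, 3996 and 7062 in water replicates 1, 2 and 3. The groups overlapped, with dsRNA replicate 1 the highest and water replicate 2 the lowest of the 6 libraries. Its means were 7030 ± 1130 in dsRNA embryos and 5812 ± 1609 in water embryos (SD, n = 3 each). The log2 difference was 0.30 ± 0.23 (SE), and its 95% confidence interval ran from −0.24 to 0.85. Exons of twi share 536 bases with annotated exons of CG9897 and asRNA:CR42742, which lie on the opposite and on the same strand as twi. Reads there cannot be told apart for asRNA:CR42742 in any case, and for CG9897 only by strand, whose use in counting is not stated in the sources at hand.

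The zinc-finger repressor gene sna (CG3956; BDGP6 chromosome 2L, 15476593 to 15478260, minus strand) had 4736, 4228 and 3347 normalised counts in dsRNA replicates 1, 2 and 3, against 3841, 2456 and 4240 in water replicates 1, 2 and 3. The order of the libraries from high to low was the same as for twi. Its means were 4104 ± 702 in dsRNA embryos and 3512 ± 937 in water embryos (SD, n = 3 each), and the log2 difference was 0.25 ± 0.23 (SE; −0.30 to 0.79). Without water replicate 2 the log2 fold changes were 0.05 ± 0.13 for twi and 0.0095 ± 0.14 for sna (SE), with intervals of −0.25 to 0.36 and −0.33 to 0.34.

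Mef2 (CG1429; BDGP6 chromosome 2R, 9913496 to 9958858, minus strand), which encodes a MADS-box factor that later drives muscle differentiation, went the other way in water replicate 2. It had 170, 262 and 479 normalised counts in dsRNA replicates 1, 2 and 3, against 301, 833 and 454 in water replicates 1, 2 and 3. Water replicate 2 was the highest of the 6 libraries for Mef2, and for each of the other 9 genes it was the lowest. The log2 fold change of −0.80 ± 0.49 (SE; −1.97 to 0.36) was the most negative of the 10 and became −0.41 ± 0.42 without that library.

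The homeobox gene tin (CG7895; BDGP6 chromosome 3R, 21378977 to 21381970, plus strand), needed later for the heart and the dorsal mesoderm, was the least abundant. It had 22.5, 16.0 and 57.3 normalised counts in dsRNA replicates 1, 2 and 3, against 60.5, 7.72 and 80.4 in water replicates 1, 2 and 3. These rest on 33, 15 and 41 reads in the dsRNA libraries and on 80, 6 and 81 reads in the water libraries. The log2 fold change was −0.30 ± 0.92 (SE; −2.50 to 1.89). Without water replicate 2, all 3 dsRNA libraries lay below both remaining water libraries, as was so for 9.64% of all genes (7.95% were higher without overlap), and the log2 fold change was −1.31 ± 0.51 (SE; −2.50 to −0.12; limma adjusted p = 0.891). Tin was then the 1 of 10 genes with an unadjusted p under 0.05, where 3.63% of all genes had one, and 0 of 10 passed over all genes, where 4 of 9073 did (0.0441%, with 0.0331% higher and 0.011% lower).

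**Figure D2:**
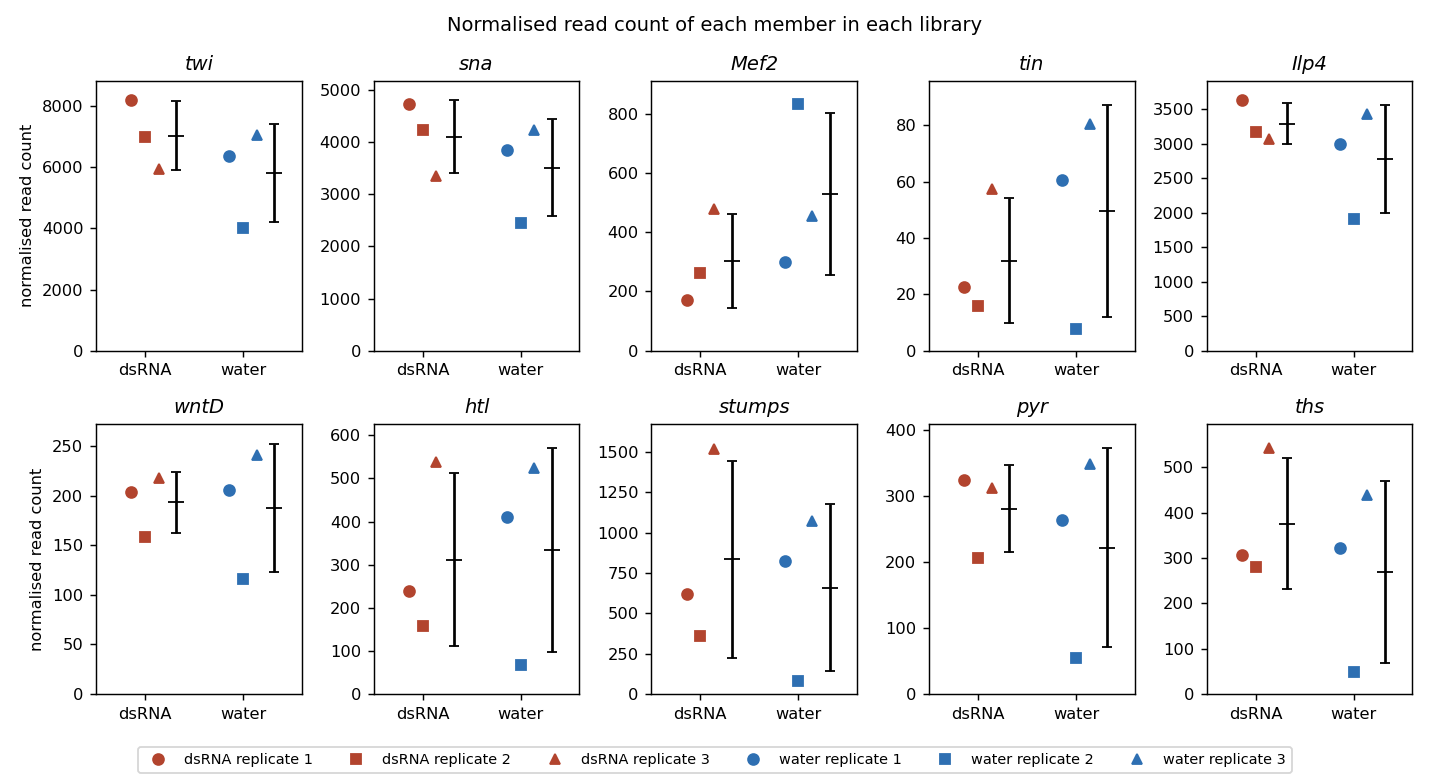
Normalised read count (vertical axis, from 0, a scale of its own in each panel) of the 10 genes in the 3 dsRNA libraries (left, red) and the 3 water libraries (right, blue). Circles, squares and triangles are replicates 1, 2 and 3, and the black bar is the mean with its SD. The groups overlap in all 10 panels, and the blue square, water replicate 2, is the lowest point in 9 of them and the highest for Mef2.

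Among the signalling genes, the receptor gene htl (CG7223; BDGP6 chromosome 3R, 18045216 to 18052984, minus strand) had 239, 158 and 539 normalised counts in dsRNA replicates 1, 2 and 3, against 410, 68.2 and 523 in water replicates 1, 2 and 3. Replicate 3 was the highest and replicate 2 the lowest library of each group. The log2 fold change was 0.15 ± 0.83 (SE; −1.84 to 2.15) and turned to −0.76 ± 0.47 (−1.86 to 0.34) without water replicate 2.

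The adaptor gene stumps (CG31317; BDGP6 chromosome 3R, 14577217 to 14608079, plus strand), whose product links activated FGF receptors to the Ras pathway, varied most. It had 620, 359 and 1519 normalised counts in dsRNA replicates 1, 2 and 3, against 822, 81.1 and 1073 in water replicates 1, 2 and 3. The highest library exceeded the lowest 4.24-fold among dsRNA embryos and 13.2-fold among water embryos, and replicate 3 was again the highest and replicate 2 the lowest of each group. Its log2 fold change was 0.74 ± 1.04 (SE; −1.74 to 3.22), and −0.43 ± 0.53 without water replicate 2.

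The ligand gene pyr (CG13194; BDGP6 chromosome 2R, 11712263 to 11726345, plus strand) had 324, 205 and 313 normalised counts in dsRNA replicates 1, 2 and 3, against 263, 54.1 and 349 in water replicates 1, 2 and 3. Its neighbour on the same strand, the ligand gene ths (CG12443; BDGP6 chromosome 2R, 11756817 to 11814424), had 307, 279 and 542 in dsRNA replicates 1, 2 and 3, against 322, 47.6 and 438 in water replicates 1, 2 and 3. For both ligands water replicate 2 was far below the other 5 libraries, and those 5 were mixed between the groups. The log2 fold changes of 0.68 ± 0.68 for pyr and 0.92 ± 0.82 for ths became −0.14 ± 0.24 and −0.064 ± 0.30 without that library (SE). The intervals then ran from −0.71 to 0.43 for pyr and from −0.77 to 0.65 for ths.

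The insulin-like peptide gene Ilp4 (CG6736; BDGP6 chromosome 3L, 9803399 to 9804263, minus strand), which is transcribed in the presumptive mesoderm, had 3636, 3168 and 3075 normalised counts in dsRNA replicates 1, 2 and 3, against 2998, 1903 and 3433 in water replicates 1, 2 and 3. It was the least variable of the 10 genes among dsRNA libraries, with a highest level 1.18-fold the lowest. The log2 fold change was 0.28 ± 0.22 (SE; −0.23 to 0.80), and 0.034 ± 0.10 (−0.20 to 0.27) without water replicate 2, the narrowest interval of the 10.

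The Wnt gene wntD (CG8458; BDGP6 chromosome 3R, 13292052 to 13293198, minus strand), whose secreted product feeds back to restrain Dorsal, had 204, 159 and 218 normalised counts in dsRNA replicates 1, 2 and 3, against 206, 116 and 241 in water replicates 1, 2 and 3. The groups overlapped closely apart from water replicate 2. Its log2 fold change was 0.095 ± 0.31 (SE; −0.64 to 0.83), the smallest in size of the 10, and −0.22 ± 0.20 without that library.

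Per length, the 10 genes fell into an abundant and a scarce set. The scale is normalised counts per kb of annotated exon in BDGP6, with all transcripts of a gene joined, so a gene whose embryonic transcript is shorter than the joined exons reads too low. Ilp4 stood at 4096 ± 374 per kb in dsRNA embryos and 3455 ± 980 in water embryos (SD, n = 3 each). Twi stood at 2944 ± 473 and sna at 2460 ± 421 in dsRNA embryos, and at 2434 ± 674 and 2106 ± 561 in water embryos. The levels of these 3 overlapped between libraries of the water group, but within each of the 6 libraries Ilp4 was above twi and twi above sna. The next gene, wntD, stood at 169 ± 27.0 per kb in dsRNA embryos and 164 ± 56.5 in water embryos, far below sna in every library. Below it, stumps, pyr, htl, ths, Mef2 and tin had means of 149, 87.5, 76.1, 46.6, 33.0 and 19.2 per kb in dsRNA embryos and of 118, 69.1, 81.6, 33.4, 57.6 and 29.8 in water embryos, in that order of genes. The ranges of neighbours overlapped between libraries. Within libraries htl exceeded ths, and ths exceeded tin, in 6 of 6, stumps exceeded htl in 5 of 6, and htl exceeded pyr in 3 of 6. Mef2 exceeded ths in 1 of 6, water replicate 2 (90.6 against 5.90 per kb), so its higher mean in water embryos rested on that library.

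**Figure D3:**
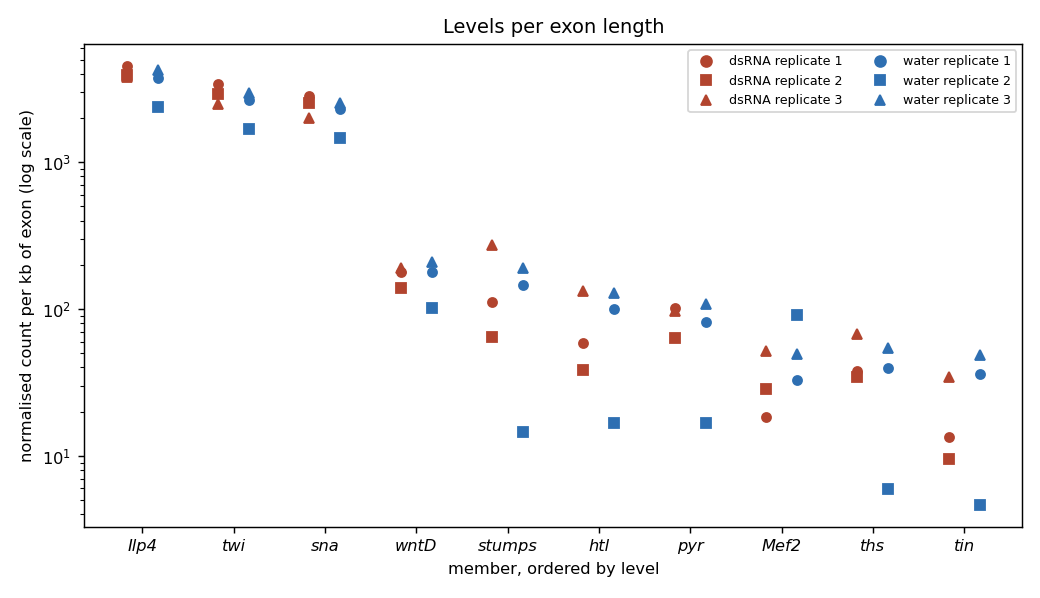
Normalised count per kb of joined exon (vertical axis, log scale) of the 10 genes, ordered from left to right by level. Red points are the dsRNA libraries and blue points, to their right, the water libraries. Ilp4, twi and sna lie above the other 7 genes in all 6 libraries.

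The 10 genes differed in their pattern across libraries. Relative to the mean of water replicates 1 and 3, water replicate 2 held 59.5% of twi, 60.8% of sna, 59.2% of Ilp4 and 51.7% of wntD. It held 17.7% of pyr, 14.6% of htl, 12.5% of ths, 11% of tin and 8.56% of stumps. For Mef2 it held 221%. Among the 6228 genes with a mean of at least 100 the median was 105%, and 5 genes had a smaller percentage than stumps, 20 smaller than ths, 32 smaller than htl and 52 smaller than pyr. At the other end, Mef2 exceeded 6198 of the 6228. Being the lowest of 6 in water replicate 2 was by itself common, at 31.2% of all genes, and so was being the highest there, at 32%.

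The dsRNA libraries were also ordered. Replicate 2 was the lowest and replicate 3 the highest in both groups for 5 of the 10 genes (tin, htl, ths, wntD and stumps), against 11.1% of all genes. In dsRNA replicate 3, stumps stood at 3.10 times, tin at 2.98 times, htl at 2.72 times, Mef2 at 2.22 times and ths at 1.85 times the mean of dsRNA replicates 1 and 2. There twi stood at 0.782 times, sna at 0.747 times and Ilp4 at 0.904 times that mean, the lowest dsRNA library for each of these 3. Among dsRNA libraries, 6 genes (stumps, htl, ths, tin, Mef2 and wntD) were highest in replicate 3 and 4 (twi, sna, Ilp4 and pyr) in replicate 1.

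Taken pair by pair with the same replicate number, 0 of 10 genes kept 1 sign in all 3 pairs, where 25% of all genes did. The difference was positive for 4 of 10 genes in pair 1, for 9 of 10 in pair 2 and for 4 of 10 in pair 3 (43.9%, 53.1% and 44.7% of all genes). For tin the log2 differences, dsRNA minus water, were −1.39, 0.96 and −0.48 in pairs 1, 2 and 3. For stumps they were −0.41, 2.13 and 0.50, and for twi 0.36, 0.80 and −0.25. In the fit that pairs libraries by number (a block), 0 of 10 genes passed with limma and 0 of 10 had an unadjusted p under 0.05 (3.84% of all genes). The standard error was smaller in that fit for each of the 10 genes. It was 0.50 for stumps, 0.40 for htl and 0.50 for tin, against 1.04, 0.83 and 0.92 in the unpaired fit. Errors and intervals given elsewhere come from the unpaired fit.

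Lists of other genes moved with these libraries, and their part in the results was not tested. Of 11 maternally loaded RNAs, 9 were highest of all libraries in water replicate 2, and their summed level was 127500 to 170640 in dsRNA libraries and 150540 to 222580 in water libraries, with water replicate 2 at the top. Of 11 segment-polarity and homeotic genes, which come on late in the blastoderm, 10 were lowest of all there, with sums of 778 to 1191 in dsRNA libraries and 309 to 1479 in water libraries. Within dsRNA embryos that sum was 843, 778 and 1191 in replicates 1, 2 and 3, so replicate 3 was again the highest and replicate 2 the lowest. The sum of the maternally loaded RNAs was 127500, 159100 and 170640 in the same replicates. It too was highest in replicate 3, but it was lowest in replicate 1. Single genes of the segment-polarity and homeotic list also differed between the groups: 1 was higher in every dsRNA library (2.99% of all genes were). Without water replicate 2, 4 had an unadjusted limma p under 0.05 (3.63% of all genes) and 0 passed. Most of these 4 were lower in dsRNA embryos. The list's median log2 fold change was −0.27 without that library and 0.075 with all libraries. Of the maternally loaded RNAs, 1 was lower in every dsRNA library (3.36% of all genes were). No member of these 2 lists was at 0 in any library.

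**Figure D4:**
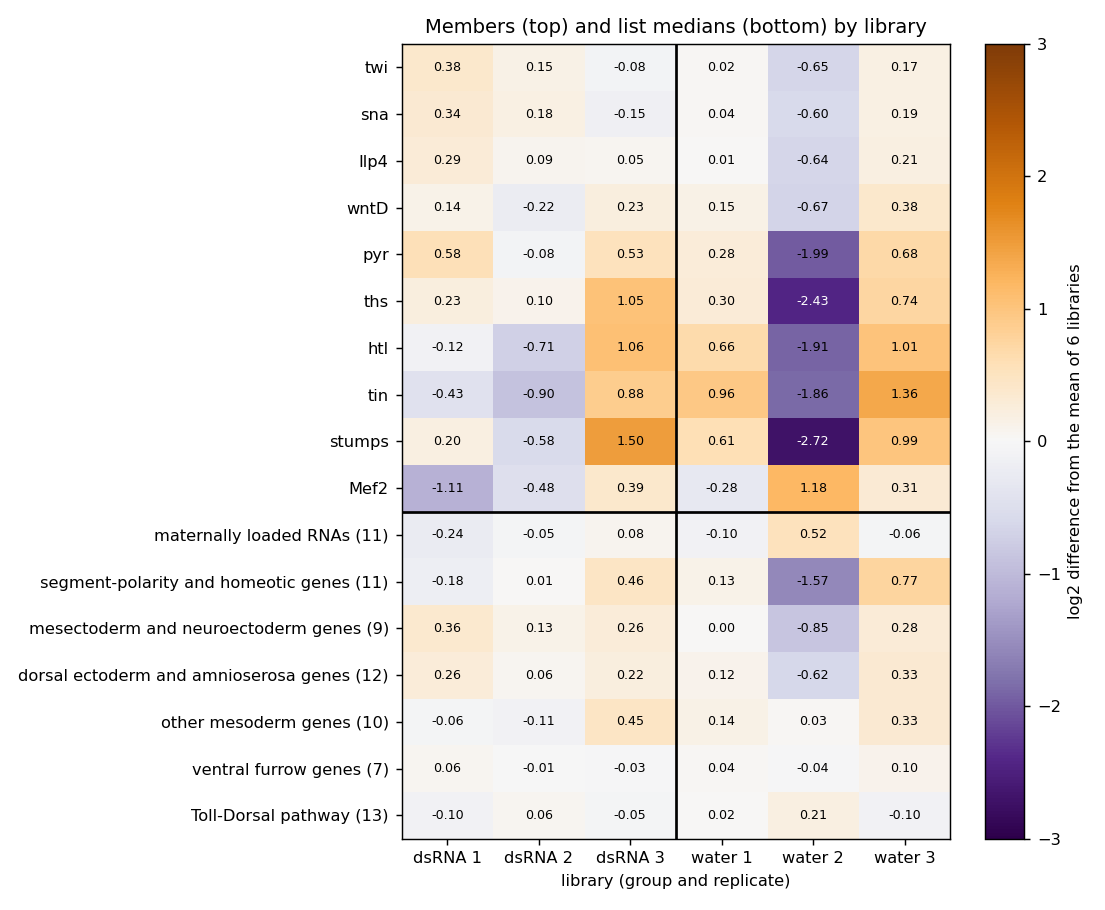
Log2 difference of each library (columns; dsRNA left, water right) from the mean of the 6 libraries, for the 10 genes (upper rows) and as the median of 7 lists with the number of genes measured (lower rows). Water replicate 2 is strongly negative for stumps, ths, pyr, htl and tin, moderately so for twi, sna, Ilp4 and wntD, and positive for Mef2 and the maternally loaded RNAs.

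Likeness was measured as the root-mean-square difference between 2 genes' log2 levels, each centred on its own mean, over the 6 libraries. Within the set, twi and sna were the closest pair at 0.0418, followed by twi and Ilp4 at 0.0722 and sna and Ilp4 at 0.0964. Tin and htl differed by 0.25, pyr and ths by 0.324, and Mef2 and stumps, the most unlike pair, by 1.80. Among 6227 other genes with a mean of at least 100, the nearest to sna was wda at 0.0126 and the nearest to twi was Jhe at 0.0312. The nearest to htl was mew at 0.107 and the nearest to stumps was LanB2 at 0.27. The nearest to pyr was CG7191 at 0.121, to ths mfas at 0.186, to Ilp4 Oscillin at 0.0528, to wntD Mcm3 at 0.0422 and to Mef2 CG12024 at 0.0733. These genes share the 6 libraries with the members, and with so few libraries many genes have similar profiles.

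Ratios of 2 members within a library do not depend on how libraries are scaled, and 3 were examined. The log2 ratio of htl to stumps, receptor to adaptor, was −1.38, −1.18 and −1.49 in dsRNA replicates 1, 2 and 3, against −1.0, −0.25 and −1.04 in water replicates 1, 2 and 3. It was lower in each dsRNA library than in any water library. The means were −1.35 ± 0.16 in dsRNA embryos and −0.76 ± 0.45 in water embryos (SD, n = 3 each), a difference of −0.59 with a two-sided exact permutation p = 0.1, the smallest that 3 against 3 can give, and 0.3 when adjusted over the 3 ratios. Without water replicate 2 the difference was −0.33 and the groups still did not overlap.

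The log2 ratio of sna to twi was nearly constant, at −0.79, −0.72 and −0.82 in dsRNA replicates 1, 2 and 3 and at −0.73, −0.70 and −0.74 in water replicates 1, 2 and 3. Its difference was −0.055 (two-sided exact permutation p = 0.3). The log2 ratio of ths to pyr was −0.081, 0.44 and 0.79 in dsRNA replicates 1, 2 and 3 and 0.29, −0.18 and 0.33 in water replicates 1, 2 and 3, with overlapping groups and a difference of 0.24 (two-sided exact permutation p = 0.4). Without water replicate 2 the differences were −0.045 for sna to twi and 0.073 for ths to pyr. Water replicate 2, where both ligands were scarce, had the lowest ratio of ths to pyr.

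**Figure D5:**
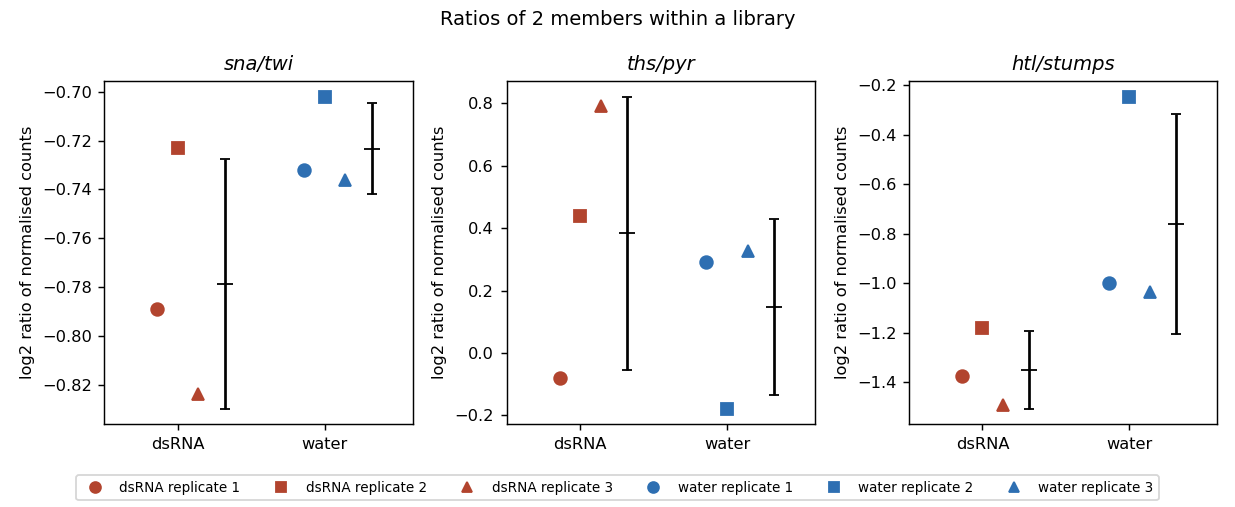
Log2 ratio of 2 members' normalised counts within a library (vertical axis, a scale of its own in each panel) for sna over twi, ths over pyr and htl over stumps. Red points on the left are dsRNA libraries, blue points on the right are water libraries, and the black bar is the mean with its SD. The groups separate for htl over stumps, where the dsRNA libraries lie between −1.49 and −1.18 and the water libraries between −1.04 and −0.25.

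Around the FGF genes, no change passed the test. The ligand and receptor of the later tracheal FGF pathway were scarce. The receptor gene btl had 61.4, 66.0 and 58.7 normalised counts in dsRNA replicates 1, 2 and 3 against 48.4, 32.2 and 57.6 in water replicates 1, 2 and 3, higher in every dsRNA library (2.99% of all genes were). Its log2 difference of 0.46 ± 0.27 (SE) did not pass with limma (adjusted p = 0.999) and was 0.23 ± 0.22 without water replicate 2. The ligand gene bnl was at 6.82, 14.9 and 27.9 in dsRNA libraries and at 21.2, 0 and 28.8 in water libraries. Reads of btl are uncertain, since part of its exons is shared in the annotation.

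Of 10 genes that relay the signal from receptor to MAP kinase, 0 passed the test, which does not show that they were unchanged. Their log2 fold changes were positive for 3 and negative for 7, with a median of −0.11 (−0.056 without water replicate 2). The GTPase gene Ras85D was nearly level, at 11744 to 12776 in dsRNA libraries and 12058 to 12681 in water libraries (log2 −0.022 ± 0.053, SE). The MAP kinase gene rl (log2 0.034 ± 0.094) and the phosphatase gene csw (−0.21 ± 0.28) also did not pass, and stood at 0.097 ± 0.089 and 0.073 ± 0.19 without water replicate 2. Of 4 regulators and outputs, 0 passed. The inhibitor gene sty, itself induced by such signals, had 96.1, 58.5 and 247 normalised counts in dsRNA replicates 1, 2 and 3 and 148, 32.2 and 249 in water replicates 1, 2 and 3, with replicate 2 lowest and replicate 3 highest in each group, as for htl and stumps. The ETS-factor gene pnt was at 119 to 235 in dsRNA libraries and 125 to 207 in water libraries. Of 9 genes for heparan sulfate and its core proteins, which FGF signalling needs, 8 were measured and 0 passed. Their median log2 fold change was 0.062 (0.013 without water replicate 2). Sfl stood at 0.026 ± 0.099 and dlp at 0.048 ± 0.096 (log2, SE), and at −0.049 ± 0.090 and 0.13 ± 0.081 without that library.

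Among other mesoderm genes, 10 of 13 were measured and 0 passed. They had 5 positive and 5 negative values and a median log2 fold change of −0.016 (−0.28 without water replicate 2). The zinc-finger gene zfh1 had 258, 270 and 610 normalised counts in dsRNA replicates 1, 2 and 3 and 390, 708 and 623 in water replicates 1, 2 and 3. Mes2 had 313, 467 and 793 in the dsRNA libraries and 571, 964 and 665 in the water libraries. Both were highest of the water libraries in replicate 2, as Mef2 was. Cyp310a1, by contrast, had 534, 435 and 535 in the dsRNA libraries and 565, 219 and 697 in the water libraries, with replicate 2 the lowest of each group. The RNA-binding protein gene how was level (log2 0.0054 ± 0.064, SE, and −0.047 ± 0.061 without water replicate 2).

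Of 7 genes of the ventral furrow, the fold that the mesoderm makes, 0 passed (median log2 −0.030, and −0.059 without water replicate 2). Fog, which encodes the secreted trigger of apical constriction, had 1240, 1719 and 2162 normalised counts in dsRNA replicates 1, 2 and 3 and 1726, 2866 and 1835 in water replicates 1, 2 and 3. T48, which acts beside it at the membrane, had 157, 139 and 383 in the dsRNA libraries and 257, 275 and 325 in the water libraries. Neither was lowest in water replicate 2. Exons of T48 overlap those of Ets97D, and exons of zfh1 those of asRNA:CR45189.

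Upstream, the Toll-Dorsal pathway showed 0 of 13 measured genes past the test (median log2 0.029, and 0.058 without water replicate 2). Of these genes 1 was lower in every dsRNA library, as were 3.36% of all genes. The receptor gene Tl stood at 51352 to 57689 in dsRNA libraries and 50456 to 55656 in water libraries, and the inhibitor gene cact, whose exons overlap those of fzy, at 32840 to 37683 in dsRNA libraries and 33832 to 35164 in water libraries. Counts of dl, the gene of Dorsal itself, were 97.5 to 127 in dsRNA libraries and 86.9 to 165 in water libraries. That is low for a maternally supplied transcript, and the authors' annotation is not given in the sources used here, so which transcripts these counts cover is not known. Water replicate 2 was within 2 times every other library for Tl, cact and the counted reads of dl, unlike for htl, stumps, pyr, ths and tin. That did not hold for every gene of the pathway. Of the 13 measured, 7 were highest of all libraries in water replicate 2 (32% of all genes were) and 1 was lowest (31.2% were).

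Genes of the neighbouring cell types were measured in the same libraries. Of 9 mesectoderm and neuroectoderm genes, 0 passed and 7 were lowest of all in water replicate 2, and their sum was 15989 to 20551 in dsRNA libraries and 8521 to 17630 in water libraries. Sim, the master gene of the mesectoderm, had 21.1, 14.9 and 105 normalised counts in dsRNA replicates 1, 2 and 3 and 65.8, 24.5 and 98.3 in water replicates 1, 2 and 3. Sog, a neuroectodermal gene, had a log2 fold change of 0.50 ± 0.32 (SE), and 0.12 ± 0.15 without water replicate 2, and the list's median was 0.38 and 0.047. Of 12 dorsal ectoderm and amnioserosa genes, 0 passed with all libraries and 7 were lowest in water replicate 2, with sums of 27829 to 33087 in dsRNA libraries and 24603 to 27538 in water libraries. Without water replicate 2, 1 of the 12 passed. This was tsg, which encodes a secreted modulator of BMP signals and is named here after its values were seen. It was higher in every dsRNA library than in any water library, and 2.99% of all genes were. Its log2 fold change was 1.14 ± 0.12 with all libraries (limma adjusted p = 0.103) and 1.20 ± 0.12 without that library (limma adjusted p = 0.0293). Of 7 pole cell genes 0 were lowest in water replicate 2 and 5 were highest, as were 9 of the 11 maternally loaded RNAs. The sums of the pole cell genes were 13357 to 14943 in dsRNA libraries and 13466 to 18132 in water libraries. Of 5 measured blood cell genes 3 were lowest in water replicate 2 and 1 was highest. Their sums were 2707 to 4089 in dsRNA libraries and 2678 to 5040 in water libraries, and thus join genes that went opposite ways in that library. No measured gene of these 4 lists was at 0 in any library, and the part of any of them in the results was not tested.

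Muscle differentiation genes, which Mef2 drives later, were measured for 12 of 17 listed, and 0 passed (median log2 −0.018, and −0.052 without water replicate 2). Their summed level was 29426 to 31930 in dsRNA libraries and 30042 to 31068 in water libraries, with none at 0. Nearly all of that sum was Tm1, at 29106 to 31571 in dsRNA libraries and 29642 to 30688 in water libraries. The sum therefore says little about the other genes of the list, some of which were scarce. The relatives of sna, Ilp4 and wntD also did not change past the test. Of 3 snail-family paralogs 0 passed, and esg stood at 806 to 1040 in dsRNA libraries and 917 to 1152 in water libraries. Of 5 measured genes among insulin-like peptides, their receptor and its adaptor, 0 passed and 2 were higher in every dsRNA library (2.99% of all genes were). Ilp2, named here after its values were seen, is 1 of these and rests on 1 to 6 reads a library. The other, Ilp6, had 38.9, 27.7 and 29.3 in dsRNA replicates 1, 2 and 3 against 23.4, 16.7 and 25.8 in water replicates 1, 2 and 3. Its log2 fold change was 0.53 ± 0.29, and 0.35 ± 0.28 without water replicate 2, and that of the receptor gene InR was −0.18 ± 0.18, and −0.068 ± 0.17 without it (SE). Of 5 measured Wnt ligands 0 passed and 1 was higher in every dsRNA library (2.99% of all genes were). The ligand gene wg stood at 267 to 462 in dsRNA libraries and 241 to 422 in water libraries.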

How the data were processed

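Poly(A) RNA-seq of whole embryos was compared between 3 eve+runt dsRNA and 3 water libraries, grouped by their titles. Tools named in the submitters' processing notes are Bowtie2, DESeq, HTSeq and TopHat2 (2.0.9), with build dm3 but no order or settings; the annotation release is not given in the sources used here. For each gene the authors deposited a normalised signal. Every value less 1 was a whole multiple of a step (100% of values within 0.01 read), that is, a read count divided by a library factor, with 1 added. Reads aligning to several places (12.4% to 14.8% of listed reads), ambiguous between genes (0.72% to 0.75%) and outside genes (4.32% to 4.91%) stayed out of every test, and 0 columns belonged to other samples. Symbols came from a RefSeq table of Release 6 (9010 of 9073 matched). Positions and exon lengths came from BDGP6, a build other than dm3, and no coordinate was converted. Nucleotide and protein sequences are not used here.

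The log2 of the deposited value was fitted with limma 3.58.1 in R 4.3.3 (trend, robust), threshold 0.05 after Benjamini-Hochberg adjustment over all genes. The script was tested on simulated data, in which libraries were independent and none stood apart. That test therefore does not show how small a change these libraries could reveal. Planned count models were not run, since the deposited values are not counts as such; limma-voom with TMM on the recovered reads was added after the files were seen. Members, lists and the rule for named genes (all members, the targets and a fixed set of pathway genes, plus for each member the nearest genes by profile) were chosen with earlier results of these data known. Genes named outside that rule are tsg, Ilp2 and those whose exons overlap a named gene. Of the fixed set, 1 gene is not reported here. Within groups, no library repeated another (chi-square of read counts over degrees of freedom, 15.8 to 80.5). Deviations of same-numbered libraries from their group means correlated across genes at 0.24, 0.37 and 0.22, and those of other pairs at −0.38 to 0.11. The numbers were taken to pair the libraries in the block fit only, and the main fit was unpaired. Alternatives covered the block, scaling, pseudocount, low values, library weights and leaving out each library.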

Additional observations from a re-analysis of the deposited data

How the results depend on the processing

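Under every alternative run, 0 of the 10 genes passed over all genes. Of 139 values of single genes under alternatives, 124 kept their direction and 15 turned. Over all genes 1 gene passed as reported, 0 with the replicate block (pairing by replicate number), 5 with library weights, and 0 to 4 on leaving out each library in turn; the block changed no call of the 10 genes. The genes' median log2 fold change was −0.12 with library weights and −0.18 to 0.46 on leaving out libraries, the lowest without water replicate 2. Library weights turned htl to −0.92, pyr to −0.034, ths to −0.010, wntD to −0.21 and stumps to −0.61 and moved tin to −1.45, and limma-voom turned htl to −0.013; the cause was not tested. On leaving out libraries in turn, tin ranged from −1.31 to 0.30, htl from −0.76 to 0.70, pyr from −0.14 to 1.20, ths from −0.064 to 1.52, wntD from −0.22 to 0.31 and stumps from −0.43 to 1.43, each lowest without water replicate 2. Tin was positive without dsRNA replicate 2 (0.071), water replicate 1 (0.098) or water replicate 3 (0.30), and htl was also negative without dsRNA replicate 3 (−0.34). The signs of twi, sna, Ilp4 and Mef2 and of the 3 ratios did not turn under any alternative run. The filter on a mean of at least 50 removed tin. The alternatives planned with count models were not run. Tin rests on 6 to 81 reads a library, the fewest of the 10 genes, and stumps had the widest interval.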
